A study of Mus musculus with 6 samples.

Results

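The 10 genes described here encode the machinery that is classically read out in wasting muscle: the ubiquitin ligases Fbxo32 (atrogin-1), Trim63 (MuRF1), Fbxo40 and Fbxo21, the FOXO transcription factors Foxo1, Foxo3 and Foxo4, the glucocorticoid-induced transcription factor Klf15, the ligand Mstn (myostatin) and its receptor Acvr2b. They were chosen by name for their known roles, but with earlier results of these data known. All 10 were found by their Ensembl identifiers among the 55416 genes of the count table and passed the filter on low counts, as did 15623 genes in all. RNA-seq was performed on tibialis anterior (TA) muscle, a predominantly fast-twitch muscle of the lower hindlimb, from 3 WT and 3 SELENOW KO mice. All mice were raised to 24 months of age without treatment, on a C57BL/6N background and with free access to diet. The KO line lacks exon 4 of Selenow, which encodes a small selenoprotein. It was made with 2 sgRNAs and is not restricted to a tissue, so every cell type of the muscle carries the deletion.

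Muscle loses mass when protein breakdown outruns synthesis. When insulin and IGF1 signaling through AKT is low, FOXO factors move to the nucleus and switch on ubiquitin ligases that mark myofibrillar and other proteins for the proteasome, together with autophagy genes. Glucocorticoids act on the same genes through their receptor and KLF15, and myostatin, secreted by the fibers themselves, signals through ACVR2B and SMAD2/3 to restrain muscle growth.

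The promoter of Trim63 is shown because the motifs of both inputs, a FOXO element and a glucocorticoid receptor half-site, were found in it and in no other promoter of these genes with a sequence at hand. The 250 bases before its RefSeq transcription start (GRCm38.p6, chr4:134314870-134315119, plus strand) are given 5′ to 3′, with the receptor half-site TGTTCT and the FOXO element TGTTTAC in capitals.

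Trim63: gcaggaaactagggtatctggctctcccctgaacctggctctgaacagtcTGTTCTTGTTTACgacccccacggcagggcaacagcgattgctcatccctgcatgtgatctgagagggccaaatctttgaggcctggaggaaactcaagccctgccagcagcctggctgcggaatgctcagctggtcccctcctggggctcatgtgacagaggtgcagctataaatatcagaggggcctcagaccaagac

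The half-site lies 200 to 195 bases before the start and the FOXO element follows it directly at 194 to 188, with no base shared. Among 32851 promoter windows of this length, 1040 (3.17%) held GTAAACA or TGTTTAC on either strand, 5284 (16.1%) held AGAACA or TGTTCT, and 227 (0.691%) held both. RefSeq windows were matched for 8 of the 10 genes (not Fbxo32 and Foxo4). Trim63 was the only one of these with the FOXO element, and Fbxo40 had 1 receptor half-site 176 to 171 bases before its second start. In the wider pathway, 69 genes had a window and 3 of them (4.35%, against 3.54% of 27025 genes) held the FOXO element. The half-site was found in 8 of them (11.6%, against 18.2%). One example of each is shown for comparison with Trim63, the FOXO element of Txnip at 121 to 115 bases and a half-site of Sgk1 at 189 to 184 bases before the start (window chr10:21993640-21993939, 1 of several starts of this gene), with that match in capitals. The Sgk1 stretch holds a second half-site, on the opposite strand at 180 to 175 bases, which is left in lower case.

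Txnip: tggaggcctgGTAAACAagggccaagt
Sgk1: ttatgcggaaAGAACAgaatgttctc

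Such a match describes the letters of the window and not binding, which was not measured. Only exact matches were searched. A stretch with a differing letter, such as tgaaca shortly before the half-site of Trim63, therefore stays in lower case.

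The 6 libraries held 25351976 to 29111213 counts. Mitochondrially encoded genes took 29.1 to 37.3% of the counts in WT and 35.4 to 40.3% in KO libraries. Fast fiber genes were abundant in every library, with 8 genes (among them Myh4, Acta1 and Ckm) summing to 85780 to 113500 CPM (counts scaled to a common library total) in WT and 96040 to 112800 CPM in KO muscle. Selenow itself was counted at 268, 245 and 219 CPM in WT and 193, 212 and 210 CPM in KO muscle. Its groups did not overlap, but the difference did not pass the DEG thresholds (log2 fold change -0.25 ± 0.14 SE, edgeR adjusted p = 0.604). These counts cover the whole gene and do not resolve exon 4, so they do not check the deletion. CPM values throughout were scaled between libraries by the TMM method.

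A differentially expressed gene (DEG) was taken at an unadjusted p under 0.05 with a fold change over 1.5 or under 0.7. Of the 10 genes 1, Acvr2b, was higher in KO muscle by this rule, none was lower and 9 did not pass. Over all 15623 genes tested by edgeR, 5.35% passed, 2.21% higher and 3.14% lower in KO. With DESeq2, Acvr2b was again the only one of the 10, beside 4.94% of all genes tested. A single gene of 10 is not read here as a property of the group, and Acvr2b was known to pass in these samples when the genes were chosen, so its call is not independent evidence. No gene of the 10 had an adjusted p under 0.05 by edgeR or DESeq2. Over all genes that count was 0 by edgeR, where 1545 genes had an unadjusted p under 0.05, and 45 by DESeq2. The paper gives its number of replicates as mice, while the labels do not say how the libraries of a genotype relate to each other beyond their number. The p-values set the difference between genotypes against the spread between the libraries of a genotype.

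The median log2 fold change of the 10 genes was -0.19 (KO over WT), against -0.0042 for all genes tested, with 6 of the 10 fitted values negative and 4 positive. The sign of this median depended on 1 library: without WT replicate 2 it was 0.13.

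**Figure D1:**
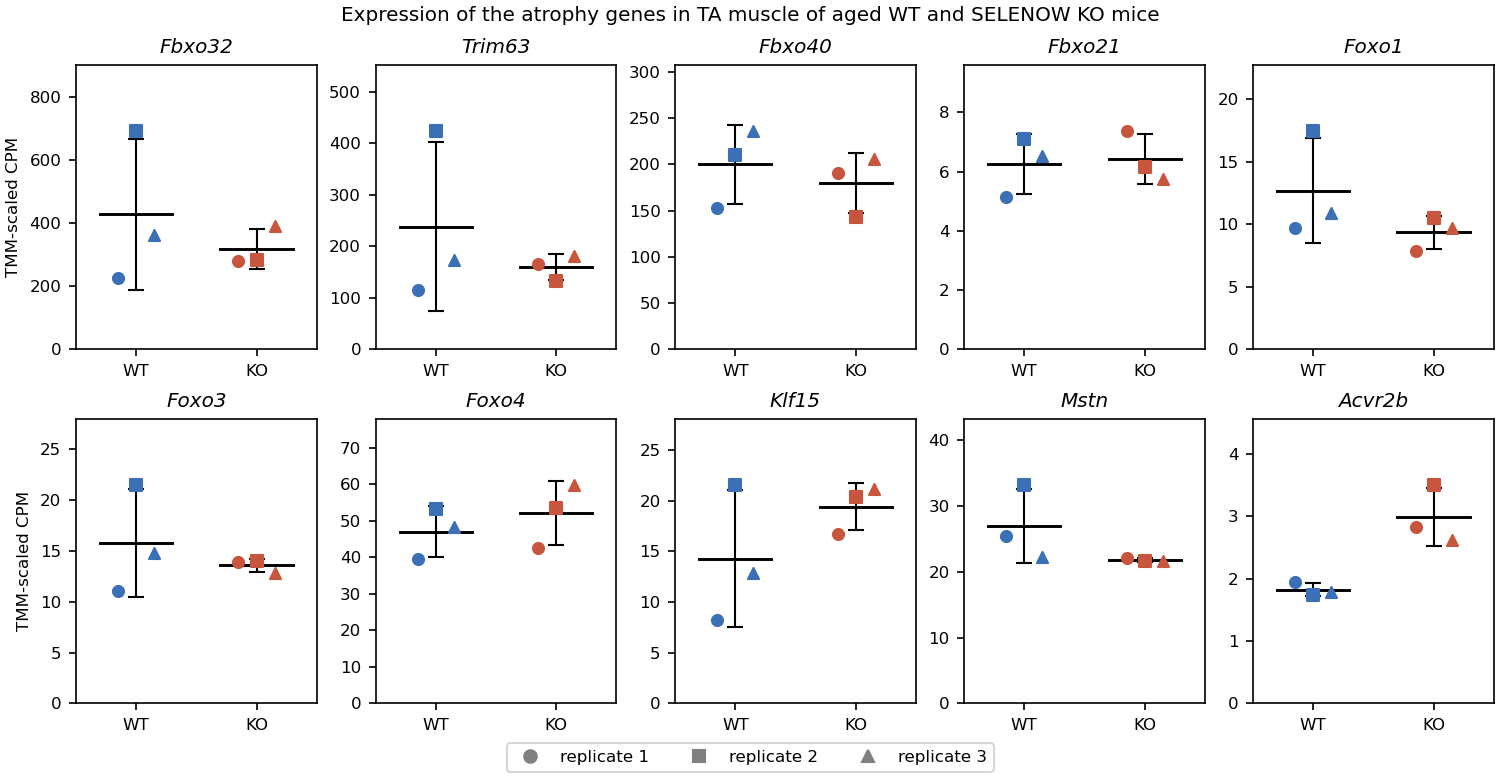
TMM-scaled CPM of the 10 genes in the 3 WT (blue) and 3 KO (red) libraries of aged TA muscle. Points are libraries, with a symbol for each replicate number, horizontal lines are means and bars are SD (n = 3). WT replicate 2 (blue square) is the highest of the 6 libraries for Fbxo32, Trim63, Foxo1, Foxo3, Klf15 and Mstn, and the genotypes do not overlap for Mstn and Acvr2b only.

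Per unit of transcript length the ligases led the group. In TPM, the measure scaled by both length and library total, the WT means were 97.8 for Trim63, 71.5 for Fbxo32, 41.7 for Fbxo40, 15.4 for Foxo4, 11.2 for Mstn, 5.93 for Klf15, 2.40 for Foxo3, 1.67 for Foxo1, 1.29 for Fbxo21 and 0.517 for Acvr2b. Within each of the 6 libraries every gene was above the next one in this order, except that Foxo1 was above Fbxo21 in 5 of 6, at 0.685 to 1.58 times its level. Mstn exceeded Klf15 in all 6, but by a ratio of only 1.05 in 1 of them. Compared across libraries, 2 pairs of neighbours did not overlap: Fbxo40 (21.8 to 54.6 TPM) lay above Foxo4 (9.78 to 18.3 TPM), and Fbxo21 (0.833 to 1.53 TPM) above Acvr2b (0.445 to 0.749 TPM). The ranges of the other neighbours overlapped, as for Trim63 (36.6 to 178 TPM) and Fbxo32 (29.3 to 119 TPM).

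Fbxo32 and Trim63, the 2 ligases most used as markers of atrophy, did not pass the test between genotypes and varied most among the WT libraries. Fbxo32 was measured at 228, 693 and 364 CPM in WT and at 281, 284 and 391 CPM in KO muscle. The KO libraries thus lay inside the WT range. The mean was 428 ± 239 CPM (SD, n = 3) in WT and 319 ± 62.7 CPM in KO, a log2 fold change of -0.43 ± 0.41 SE (edgeR adjusted p = 0.768). As a fold this was 0.744, with a 95% interval from 0.373 to 1.49. Its direction rested on WT replicate 2: without that library the log2 fold change was 0.11, and without WT replicate 1, the lowest of the 6, it was -0.73 and passed the DEG thresholds (edgeR unadjusted p = 0.0469).

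Trim63, which encodes a sarcomere-bound RING ligase, was likewise highest in WT replicate 2 and lowest in WT replicate 1. It was counted at 116, 424 and 175 CPM in WT and at 166, 132 and 182 CPM in KO muscle. Again the groups overlapped and WT replicate 2 stood alone, at 2.33 times the highest KO library. The means were 238 ± 164 and 160 ± 25.4 CPM, the log2 fold change was -0.58 ± 0.51 SE (edgeR adjusted p = 0.755), and it turned to 0.14 without WT replicate 2.

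Between the highest and lowest WT library, Fbxo32 differed 3.04-fold and Trim63 3.66-fold. Of 5346 genes with a mean of at least 10 CPM, 2.88% differed by more than 2-fold among the WT libraries, and 0.767% and 0.599% by at least as much as Fbxo32 and Trim63. The median gene differed 1.25-fold. Among the KO libraries Fbxo32 and Trim63 differed 1.39- and 1.38-fold, beside a median of 1.20. With 5622 to 22266 counts for Fbxo32 and 2861 to 13630 for Trim63, counting error was at most 1.33% and 1.87% of a value, far below the spread among the WT libraries.

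The other ligases were steadier. Fbxo40, a muscle-restricted F-box protein that acts on the insulin receptor substrate IRS1, was at 153, 210 and 236 CPM in WT and 191, 143 and 205 CPM in KO muscle, with a log2 fold change of -0.15 ± 0.19 SE (edgeR adjusted p = 0.820). Fbxo21, an F-box protein of a FOXO-dependent ligase, was at 5.15, 7.10 and 6.52 CPM in WT and 7.37, 6.16 and 5.76 CPM in KO muscle. Its groups overlapped throughout, and its log2 fold change of 0.035 ± 0.17 SE changed sign when WT replicate 1 or KO replicate 1 was left out. A log2 difference beyond -0.34 to 0.41 lay outside the 95% interval for Fbxo21, which makes it the gene of the 4 whose genotype difference was bounded most closely.

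**Figure D2:**
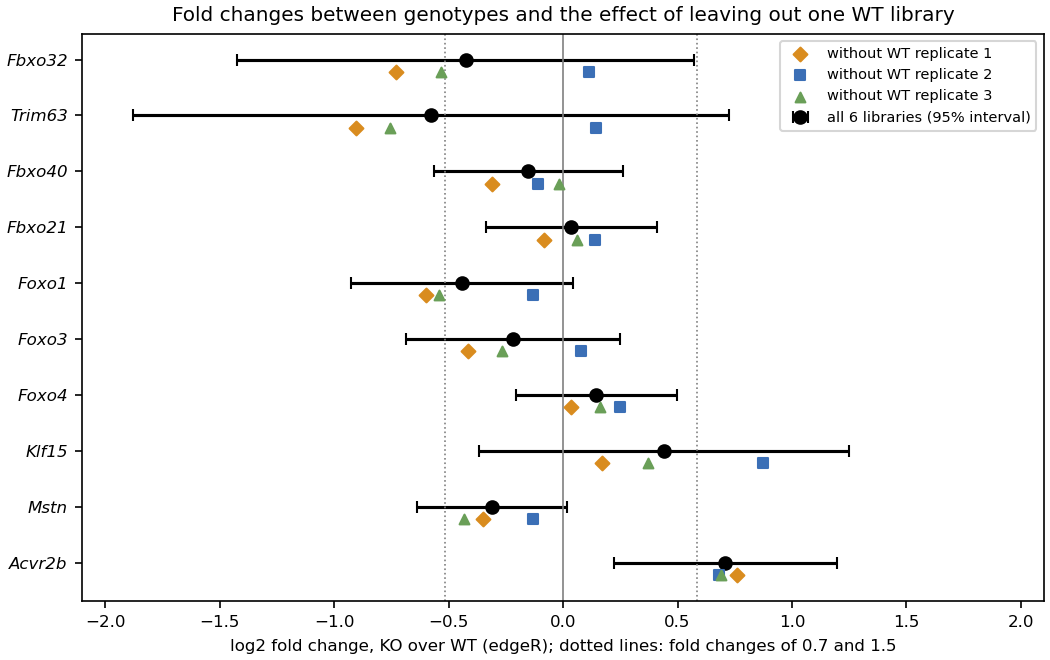
Log2 fold change of the 10 genes (KO over WT, horizontal axis) with the 95% interval of the edgeR fit to all 6 libraries (black), and the values without each WT library in turn (colored symbols). Only the interval of Acvr2b excludes 0, and Fbxo32, Trim63 and Foxo3 lie right of 0 without WT replicate 2.

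None of the 3 FOXO genes passed the test, and their fitted fold changes differed in sign. Foxo1 was at 9.69, 17.5 and 10.9 CPM in WT and 7.89, 10.5 and 9.72 CPM in KO muscle. WT replicate 2 was the highest, and 2 of the 3 KO libraries exceeded the lowest WT library, by little in both cases. Its log2 fold change was -0.44 ± 0.22 SE (edgeR adjusted p = 0.552). It was -0.13 without WT replicate 2 (edgeR unadjusted p = 0.460). Without WT replicate 1 it was -0.60 and passed the DEG thresholds (edgeR unadjusted p = 0.0204), as it did in no other fit that left out 1 library.

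Foxo3, the member most closely tied to atrophy and autophagy genes, was at 11.0, 21.5 and 14.8 CPM in WT and 13.9, 14.0 and 12.8 CPM in KO muscle. Its 3 KO libraries were nearly alike, differing 1.09-fold, and sat within a WT range of 1.95-fold. The log2 fold change of -0.22 ± 0.21 SE (edgeR adjusted p = 0.757) became 0.076 without WT replicate 2. Foxo4, per length the most abundant of the 3, was at 39.4, 53.3 and 48.3 CPM in WT and 42.5, 53.5 and 59.9 CPM in KO muscle. Its groups overlapped, with a log2 fold change of 0.145 ± 0.16 SE (edgeR adjusted p = 0.796).

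Klf15, a transcription factor induced by glucocorticoids that drives branched-chain amino acid breakdown, was at 8.28, 21.6 and 12.9 CPM in WT and 16.8, 20.4 and 21.1 CPM in KO muscle. Here the KO libraries were close together (1.26-fold), and above WT replicates 1 and 3 but below WT replicate 2. With all libraries the log2 fold change was 0.44 ± 0.33 SE (edgeR adjusted p = 0.709). Without WT replicate 2 it was 0.88 and passed the DEG thresholds (edgeR unadjusted p = 0.00102), so the call depended on that library. Its KO mean was above its WT mean (19.4 ± 2.34 against 14.3 ± 6.77 CPM, SD, n = 3), while the reverse held for Fbxo32 and Trim63, and with all libraries none of these 3 differences passed the test.

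Mstn, the gene of the growth-restraining ligand, was the one member with every KO library below every WT library. It was at 25.4, 33.2 and 22.3 CPM in WT and 22.1, 21.6 and 21.6 CPM in KO muscle. The gap between the groups was small, 22.3 against 22.1 CPM, while the KO libraries differed only 1.02-fold. Its log2 fold change of -0.31 ± 0.15 SE did not pass the thresholds (edgeR unadjusted p = 0.0600, adjusted p = 0.531). It was -0.13 without WT replicate 2 (edgeR unadjusted p = 0.377) and -0.43 without WT replicate 3, short of the fold threshold (edgeR unadjusted p = 0.0137). Of all genes tested, 15.4% had no overlap in CPM between the genotypes in one direction or the other. Of the 10 genes this held for Mstn and Acvr2b.

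Acvr2b, the activin type II receptor to which myostatin binds, was the only gene of the 10 past the DEG thresholds. It was at 1.95, 1.74 and 1.78 CPM in WT and at 2.82, 3.51 and 2.62 CPM in KO muscle, so that the lowest KO library was above the highest WT library. The mean rose from 1.82 ± 0.109 to 2.98 ± 0.466 CPM (SD, n = 3), 1.63-fold with a 95% interval from 1.17 to 2.29 (log2 fold change 0.71 ± 0.22 SE, edgeR unadjusted p = 0.00808, adjusted p = 0.340). With DESeq2 the adjusted p was 0.396. In TPM, which depends on the share of mitochondrial counts, the genotypes overlapped. WT replicate 3 was at 0.578 TPM and KO replicate 1 at 0.575 TPM, with means of 0.517 TPM in WT and 0.648 TPM in KO muscle. The gene was shallowly covered, with 48 to 86 counts per library and a counting error of 10.8 to 14.4%. Without KO replicate 2, the highest library, the log2 fold change was 0.58 and fell just short of the fold threshold (edgeR unadjusted p = 0.0427). Its paralog Acvr2a, which binds the same ligands, was more abundant per length (3.38 against 0.517 TPM, WT means) and had a log2 fold change of 0.14 ± 0.14 SE (edgeR adjusted p = 0.757). The TPM of Acvr2b was 0.189, 0.127 and 0.160 of that of Acvr2a in WT, and 0.226, 0.256 and 0.208 in KO libraries. This ratio rests on the same Acvr2b counts and is not separate evidence of a difference.

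In bulk muscle, fewer cells of a type and less RNA per cell cannot be told apart. Slow fiber genes summed to 16.8 to 54.6 CPM in WT and 17.2 to 27.4 CPM in KO libraries over 6 markers, and fibro-adipogenic markers to 20.6 to 132 and 18.4 to 56.6 CPM over 4 markers. Endothelial markers (4 genes) summed to 45.9 to 79.5 CPM in WT and 71.0 to 83.8 CPM in KO libraries. None of the markers of these 3 types passed the DEG thresholds by edgeR. By DESeq2 the slow fiber genes Tnnc1 and Tnni1 passed, lower in KO muscle, and no other marker of these 3 types did. The log2 fold changes of Tnnc1 and Tnni1 were -1.40 and -2.49 (DESeq2 unadjusted p = 0.0036 and 0.0233, adjusted p = 0.228 and 0.462). Both genes were highest in WT replicate 3. Leukocyte markers (6 genes) summed to 9.93 to 20.2 CPM in WT and 9.34 to 13.4 CPM in KO libraries. Of these Cd3e was higher and Csf1r lower in KO muscle by edgeR and by DESeq2. Ptprc was lower by DESeq2 only (log2 fold change -1.21, DESeq2 unadjusted p = 0.0272, adjusted p = 0.492). Adipocyte markers summed to 0.224 to 0.775 CPM, and the keratinocyte markers Krt5 and Krt14 were at 0 counts in every library. Their part in the differences above was not tested.

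The library that was high for the atrophy genes was also the highest for many genes of the FOXO and glucocorticoid lists. WT replicate 2 was the highest of the 6 libraries for 16.0% of all genes tested. Among the 10 members this held for 6, among 20 known FOXO target genes for 13 (65%), and among 9 genes of the glucocorticoid list (the receptor gene Nr3c1, the activating enzyme gene Hsd11b1 and targets of the receptor and KLF15) for 5. Of 11 genes of the BMP pathway, the arm of the family that favors muscle growth, 3 were highest there, as were 5 of 15 genes of the myostatin and activin pathway. The same held for 5 of 16 further ubiquitin ligases and 4 of 12 genes of insulin, IGF and AKT signaling. The share of every list was thus above that of all genes. The median gene of the 10 was 1.53 times as high in WT replicate 2 as in the mean of the other WT libraries, that of the FOXO targets 1.29 times and that of the glucocorticoid list 1.61 times, beside 0.993 for all genes. For the further ubiquitin ligases and the insulin, IGF and AKT list it was 1.13 and 1.12 times. By this measure the BMP list (0.943) and the myostatin and activin list (0.984) were not raised and lay below all genes. This library was singled out after its values were seen, so these shares describe it and carry no test.

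**Figure D3:**
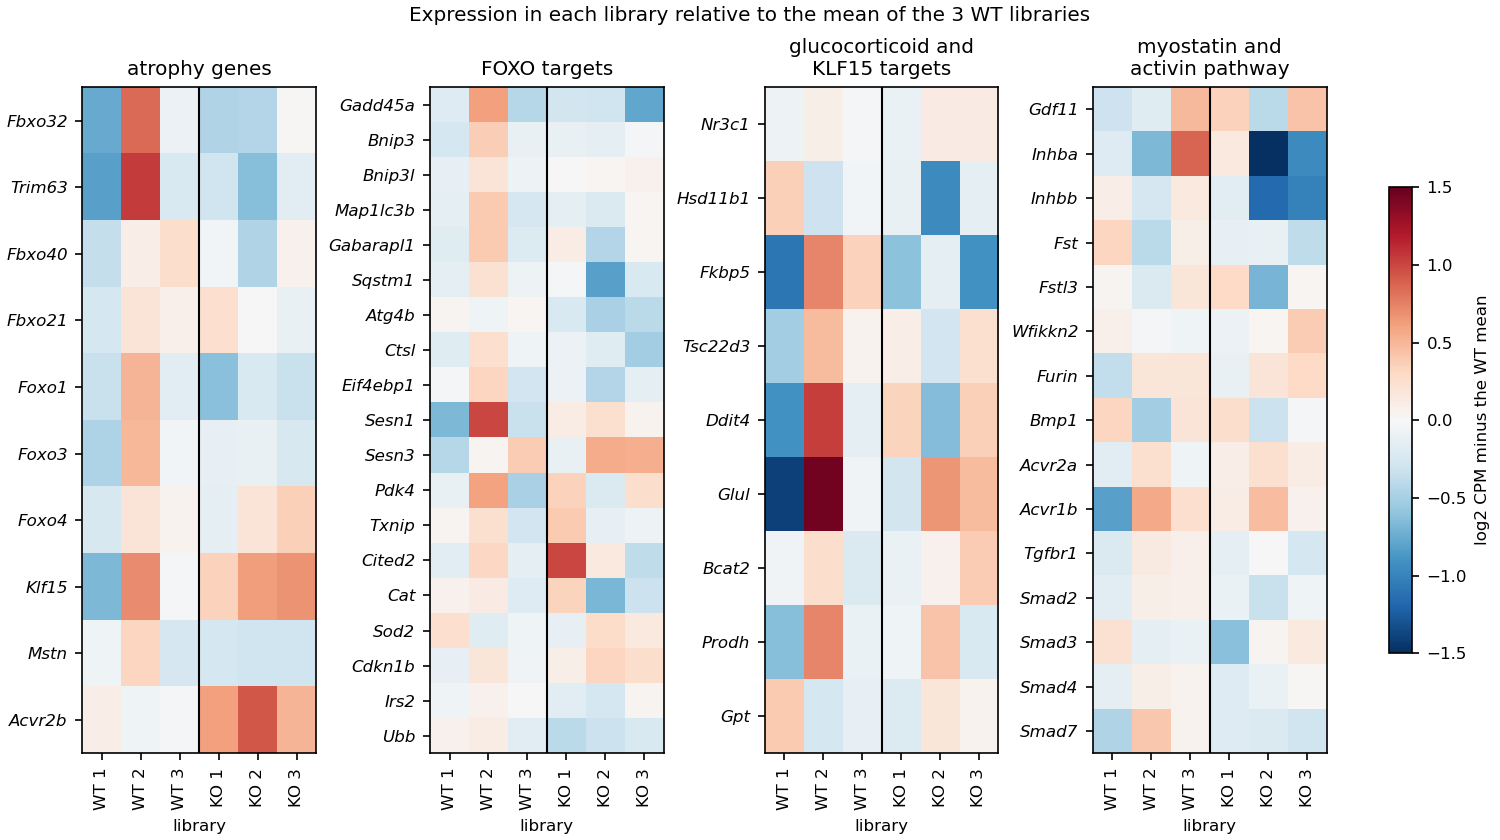
Log2 CPM in each library minus the mean of the 3 WT libraries, for the 10 atrophy genes and 3 pathway lists, with 1 FOXO target not drawn (rows, genes; columns, libraries; red higher, blue lower, colors end at 1.5). The column of WT replicate 2 is red for most atrophy genes, FOXO targets and glucocorticoid targets, with medians over the whole lists of 0.41, 0.24 and 0.48, and near white or mixed for the myostatin and activin pathway, with a median of -0.014.

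Among these targets, Glul, the glutamine synthetase gene, was at 42.1, 303 and 107 CPM in WT and 91.8, 176 and 154 CPM in KO muscle. Sesn1, a stress-induced inhibitor of mTORC1, was at 8.68, 27.8 and 10.9 CPM in WT and 14.9, 16.4 and 14.4 CPM in KO muscle. Fkbp5, a chaperone of the glucocorticoid receptor, was at 12.1, 42.6 and 32.5 CPM in WT and 16.6, 23.4 and 13.6 CPM in KO muscle. These 3 genes were picked for display after their values were seen, and each was highest in WT replicate 2 and lowest in WT replicate 1. The receptor gene Nr3c1 itself varied little, from 35.6 to 40.0 CPM in WT and from 34.9 to 41.0 CPM in KO muscle.

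WT replicate 2 also had the lowest share of mitochondrially encoded counts (29.1%), the highest sum of fast fiber markers (113500 CPM) and the lowest sums of slow fiber (16.8 CPM) and, in WT, fibro-adipogenic markers (20.6 CPM). KO replicate 2 had similar sums, of 112800, 17.2 and 18.4 CPM, with Fbxo32 at 284 CPM and Trim63 at 132 CPM. WT replicate 3 had a similar mitochondrial share (29.9%) with Fbxo32 at 364 CPM. Leaving out the mitochondrially encoded genes gave a median log2 fold change of -0.18 for the 10 genes and the same single call. These values describe single libraries, and the cause of the high values in WT replicate 2 was not tested.

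Across the 6 libraries Trim63 followed Fbxo32 closely (Pearson r = 0.970, exact permutation p = 0.00278, adjusted over 9 relations 0.025; Spearman rho = 0.943, exact permutation p = 0.0167, adjusted 0.15). Without WT replicates 2 and 1, the libraries farthest from the median of Fbxo32, r was 0.742 over the remaining 4. For Foxo3, r with Fbxo32 was 0.901 (exact permutation p = 0.0222, adjusted 0.10) and rho was 0.657 (exact permutation p = 0.175, adjusted 0.263). Without those libraries r was -0.311, so the relation of Foxo3 to Fbxo32 rested on them. For Klf15 and Fbxo32 r was lower and rho higher than for Foxo3 (r = 0.614, exact permutation p = 0.193, adjusted 0.259; rho = 0.829, exact permutation p = 0.0583, adjusted 0.263), and r was -0.121 without those libraries. All 6 libraries share the scaling and the position of WT replicate 2, and the relations are described over both genotypes together.

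**Figure D4:**
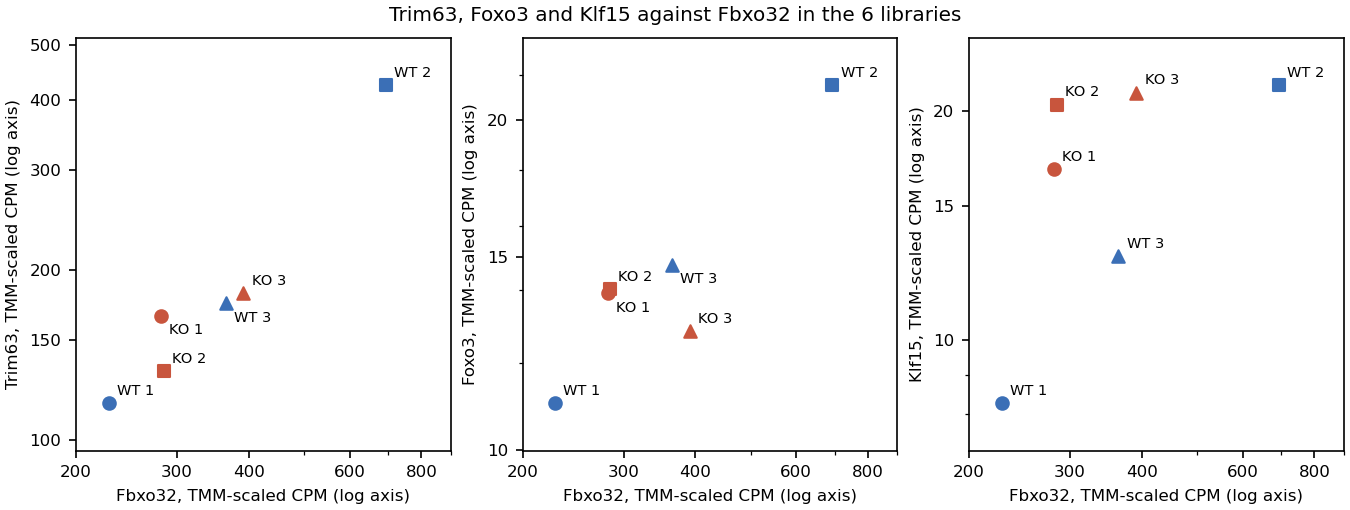
Trim63, Foxo3 and Klf15 (vertical axes) against Fbxo32 (horizontal axis) in TMM-scaled CPM on log axes, with each library labelled (WT blue, KO red). WT replicate 2 lies at the upper right and WT replicate 1 at the lower left of each panel. Without both libraries r is 0.742 for Trim63 and -0.311 for Foxo3, and in the Klf15 panel the KO libraries sit above WT replicate 3.

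Of 5345 genes with a mean of at least 10 CPM, those most like Fbxo32 over the 6 libraries in log2 CPM were Zfand3 (r = 0.989), Zfp869 (r = 0.985) and Prob1 (r = 0.983), with 79 genes above 0.9. Those most like Trim63 were Dnaja2, a cochaperone of HSP70 (r = 0.987), Crebzf (r = 0.987) and the mitophagy gene Bnip3 (r = 0.986), with 72 above 0.9. The amplitude of these genes was far smaller than that of the ligases. Bnip3 was at 93.5, 144 and 104 CPM in WT and 103, 102 and 110 CPM in KO muscle. Of these 6 genes none passed the DEG thresholds, with edgeR adjusted p from 0.849 to 0.951.

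The wider pathway was described with 90 further genes in 6 lists, of which 83 passed the filter on low counts and none passed the DEG thresholds in either direction, beside 5.35% of all genes. Their median log2 fold change was -0.051, with 34 values positive and 49 negative. Foxo6, Wfikkn1, Tll1, Acvr1c, Bmp7, Gdf5 and Gdf6 were too low to be tested.

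Of 16 further ubiquitin ligases of muscle none passed. Per length the highest were Trim54 (MuRF3), the ankyrin-repeat ligase subunit Asb2 and the HECT ligase Wwp1, at 131, 85.4 and 26.9 TPM in WT. Trim54, a relative of MuRF1 at the sarcomere, was at 168 ± 23.7 CPM in WT and 157 ± 31.4 CPM in KO muscle. Asb2 was at 269 ± 33.1 and 308 ± 76.0 CPM, and Wwp1 at 152 ± 20.4 and 182 ± 28.6 CPM. For each of these ligases the libraries of the genotypes overlapped.

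Among the 20 FOXO targets, of which none passed, Ubb, a polyubiquitin gene, and the pyruvate dehydrogenase kinase Pdk4 were among the highest per length. Ubb was at 811, 836 and 688 CPM in WT and 587, 618 and 662 CPM in KO muscle. Every KO library of Ubb was below every WT library, but its log2 fold change of -0.32 ± 0.15 SE did not pass (edgeR adjusted p = 0.515). Pdk4, which spares glucose in fasting muscle, was at 1070 ± 428 CPM in WT and 1129 ± 223 CPM in KO muscle. The other target without overlap was Atg4b, a protease of autophagosome formation, at 9.29, 8.65 and 9.22 CPM in WT and 7.73, 6.44 and 6.84 CPM in KO muscle. Its log2 fold change of -0.37 ± 0.14 SE was short of the fold threshold (edgeR adjusted p = 0.438). Lack of overlap was thus found for 2 of the 20 targets, beside 15.4% of all genes tested, and is not read as a property of the list.

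Upstream of FOXO, 12 of 13 genes of insulin, IGF and AKT signaling were tested and none passed. The highest per length were the kinases Sgk1, Akt2 and Akt1. Sgk1, which like AKT phosphorylates FOXO factors, was at 46.6, 109 and 81.2 CPM in WT and 88.1, 99.2 and 121 CPM in KO muscle. Akt2 was at 77.4 ± 9.58 CPM in WT and 68.9 ± 11.6 CPM in KO muscle, and Akt1 at 20.3 ± 2.11 and 18.9 ± 1.6 CPM. Irs1, the docking protein between the receptors and PI3K, had a log2 fold change of -0.37 ± 0.15 SE, short of the fold threshold (edgeR adjusted p = 0.455).

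For myostatin signaling, 15 of 18 genes were tested and none passed. The type I receptor Acvr1b, the highest of the list per length, was at 15.1, 39.4 and 31.6 CPM in WT and 28.8, 36.5 and 27.8 CPM in KO muscle. The signal transducers Smad4 (16.7 ± 1.37 and 15.6 ± 1.15 CPM) and Smad3 (24.4 ± 3.55 and 22.5 ± 5.93 CPM) overlapped between genotypes. Gdf11, the closest relative of myostatin, was at 6.25, 6.85 and 10.9 CPM in WT and 9.87, 5.83 and 10.5 CPM in KO muscle. In the BMP pathway 11 of 14 genes were tested and none passed. The receptors Bmpr1a (40.3 ± 6.90 and 41.0 ± 2.47 CPM) and Bmpr2 (75.3 ± 11.7 and 70.6 ± 3.10 CPM) and the target gene Id1 (4.33 ± 1.61 and 5.27 ± 0.355 CPM) led the list per length.

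All 9 genes of the glucocorticoid list were tested and none passed, with a median log2 fold change of -0.051. The highest per length were Glul, Tsc22d3 and Nr3c1, in this order. Tsc22d3 (GILZ) is an anti-inflammatory target of the receptor and was at 85.8, 172 and 128 CPM in WT and 132, 102 and 147 CPM in KO muscle.

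In the annotation of the count table, 186 of the 6976 exonic bases of Fbxo32 (2.67%; GRCm39, chromosome 15, 58039275 to 58078328, minus strand) lie within the opposite-strand gene Gm15943, and 674 of the 8665 bases of Foxo1 (7.78%; chromosome 3, 52175757 to 52260642, plus strand) within Gm20402. The labels name a kit that in its standard form does not mark strand, and the strand setting of the counting is not given in the sources used here, so the counts of these 2 genes are uncertain to the extent that reads of the antisense partner entered them. Gm15943 was counted 462, 2316 and 1174 times in WT and 982, 953 and 1242 times in KO libraries, and Gm20402 5 to 17 times. The exons of the other 8 genes overlapped no other gene. Trim63 lies on chromosome 4 (134042431 to 134056940, plus strand), Mstn on chromosome 1 (53100799 to 53107238, plus strand) and Acvr2b on chromosome 9 (119231184 to 119264061, plus strand).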

How the data were processed

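RNA of TA muscle from 3 WT and 3 KO mice was sequenced by the authors on an Illumina platform in paired ends. Per the labels, libraries were made with a NEBNext Ultra kit and reads aligned with HISAT2 to GRCm39, while the methods of the study name GRCm38, and the exon positions in the table are those of GRCm39. The paper describes featureCounts as counting reads per gene, and the deposited values are raw counts, without normalization, in 1 table for all libraries. If both reads of a pair were counted, the counting errors given here are too small. Gene symbols were matched to 52083 of 55416 identifiers. One WT column carries no number and was taken as replicate 1, since the other columns name replicates 2 and 3.

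Counts were filtered by expression (filterByExpr), scaled by TMM and fitted with genotype as the only term in edgeR 4.0.16 (R 4.3.3), quasi-likelihood test with robust estimation and Benjamini-Hochberg adjustment over 15623 genes. The steps were tested on simulated counts. Adjusted p-values are over all genes tested, and SE and 95% intervals come from the fit. DESeq2 1.42.0, other scalings and filters, a fit with the replicate number as a block and fits without each library were alternatives (13 fits). TPM used the gene lengths in the table, and depends on the share of mitochondrial counts. Depth was 25351976 to 29111213 counts per library, and intervals of counting error cover counting only. The libraries of a group differed by more than sampling noise.

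The members and lists were chosen with earlier results of these data known. The DEG thresholds follow the methods of the study. Named were the 10 members, pathway genes past the DEG thresholds, the 3 highest of each list in TPM, the 3 genes most correlated with Fbxo32 and with Trim63, and Selenow. A gene of these lists is counted but not reported here by name. Atg4b, Irs1, Acvr2a, Gdf11, Glul, Sesn1 and Fkbp5 were added or shown for their values or roles afterwards. Correlations used exact permutation of log2 CPM pairs. Promoter windows came from RefSeq (GRCm38.p6), and no coordinates were converted between builds.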

Additional observations from a re-analysis of the deposited data

How the results depend on the processing

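The number of the 10 genes past the DEG thresholds was 1 (Acvr2b) in 6 alternatives with other scalings, filters or tools, as was the case with the replicate block, where the median log2 fold change of the 10 genes was -0.16. It was 0 with an absolute log2 fold change over 1 and 0 with an adjusted p under 0.05. Leaving out 1 library gave 0 to 3 genes and medians from -0.33 to 0.13. The count was 0 without KO replicate 2, 3 without WT replicate 1 and 2 without WT replicate 2. Of the pathway genes 2 (Gadd45a and Nog) passed with no filter on low counts, 2 (Atg4b and Irs1) with no fold change threshold and 1 to 3 when 1 library was left out, beside 0 with all libraries. Igf1 passed both without WT replicate 2 and without KO replicate 1. With 1 library left out, log2 fold changes ranged from -0.73 to 0.11 for Fbxo32, -0.91 to 0.14 for Trim63 and -0.42 to 0.076 for Foxo3, each positive only without WT replicate 2, and from -0.083 to 0.14 for Fbxo21, negative without WT replicate 1 and without KO replicate 1 (-0.069). The cause was not tested. With CPM of the total counts, 3 genes did not overlap between genotypes (Foxo1 joined). Deviations of same-numbered libraries from their group means had correlations of 0.060, 0.044 and -0.074 over 15623 genes. Those of unlike-numbered libraries ranged from -0.14 to 0.093. The labels give no pairing, and these correlations cannot decide whether there was one. Depth limits Acvr2b most, with 48 counts in its lowest library.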
